A study of Mus musculus with 2 samples.

Results

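The monocytes described here were 277 cells of the primary tumour library, out of 12427 cells in that library and 24044 cells in the series. They were selected on raw counts of unique molecular identifiers (UMIs), the single transcripts counted in each cell. A cell was chosen by holding over 200 detected genes, at most 5% of its UMIs in mitochondrial genes, at least 3 UMIs of Lyz2 (lysozyme, a general myeloid gene) and at least 2 UMIs in the sum of Ly6c2, Ccr2 and Plac8. Upper limits kept other cells out: under 3 UMIs of the C1q genes C1qa, C1qb and C1qc, under 5 of Gpnmb, Lpl and Mmp12, under 3 of the neutrophil genes Csf3r, Cxcr2 and Retnlg, at most 1 of Cd3d, Cd3e and Cd3g, and under 20 of the keratins Krt8 and Krt18. Levels of these genes in the members follow from the choice and are given as a description only.

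The study transplanted EO771-HEVM3 cells into female C57BL/6J mice obtained at 5 to 6 weeks of age and took single cells from the primary tumours and from the lymph nodes. EO771 is a mouse mammary carcinoma line. Its HEVM3 subline was obtained by repeated selection in mice for cells that metastasise through high endothelial venules. Both groups carried this same subline, and no tumour-free or untreated group was analysed here. Each tissue gave 1 library of 3′ droplet counts from 6 pooled mice, with no map from cell to mouse and no sort for monocytes, so replicate error could not be estimated and no p-values are given. Intervals in square brackets are 95% intervals (exact Poisson for CPM, the count scaled to 1000000 UMIs; exact Clopper-Pearson for shares; exact for the split of 2 counts in ratios) and cover counting error only.

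Monocytes are made in the bone marrow and circulate in the blood. Classical monocytes carry Ly6C and the chemokine receptor CCR2, leave the marrow towards its ligand CCL2, and enter inflamed tissue and tumours, where they can become macrophages or antigen-presenting cells. Non-classical monocytes carry little Ly6C, depend on the transcription factor NR4A1 and patrol the vessel wall. Plac8 is expressed in monocytes but also in lymphocytes and granulocytes, and Chil3 (also called Ym1) encodes a secreted chitinase-like protein abundant in classical monocytes and immature neutrophils.

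Members made up 2.77% [2.46 to 3.11] of the 9989 primary tumour cells within the quality limits and 32.4% [29.3 to 35.7] of the 854 Lyz2 cells that these limits and their mirror images placed among monocytes, macrophages, neutrophils, cells between them or a remainder. They held 748295 UMIs, with a median of 2267 UMIs per cell (709 to 21553) and 1065 detected genes. The limits on Lyz2 and on Ly6c2, Ccr2 and Plac8 did most of the selection, leaving 1005 and then 495 cells, and the later limits left 386, 337, 330, 324 and 277. No gap separated the members from the cells outside. With every other limit met, 38 members had the smallest allowed Ly6c2, Ccr2 and Plac8 sum of 2, and 46 cells had a sum of 1 and stayed outside. For Lyz2, 24 members had exactly 3 UMIs and 49 cells outside had 2. Few cells lay at the other limits. At the C1q limit, 6 members had 2 UMIs and 2 cells outside had 3, and at the Gpnmb, Lpl and Mmp12 limit, 6 members had 4 and 7 cells outside had 5. At the Csf3r, Cxcr2 and Retnlg limit, 1 member had 2 and 3 cells outside had 3. For CD3, 1 member had 1 UMI and 2 cells outside had 2. At the keratin limit, no member had 19 and 1 cell outside had 20.

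**Figure D1:**
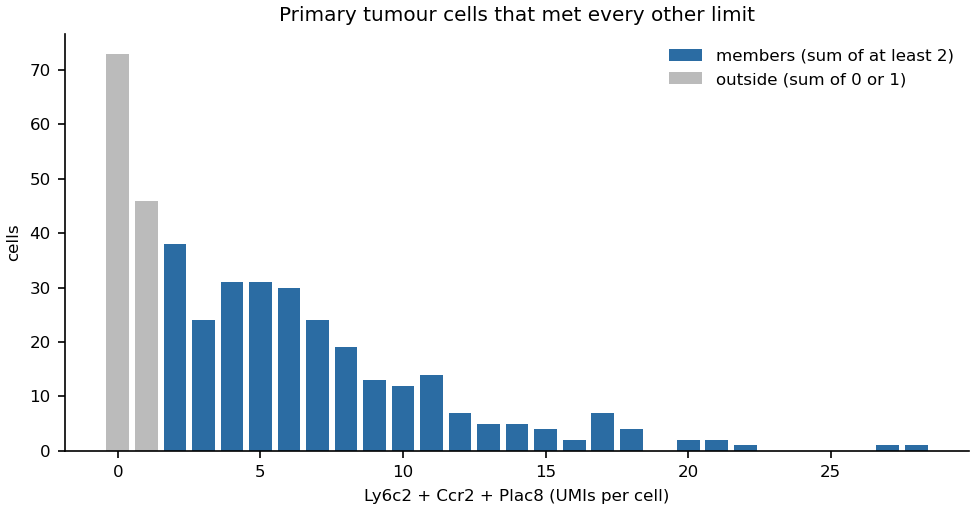
Number of primary tumour cells (vertical axis) by the sum of Ly6c2, Ccr2 and Plac8 UMIs in the cell (horizontal axis), for cells that met every other limit. Grey bars are cells outside and blue bars are members. Counts run from 73 cells at a sum of 0 through 46 at 1 and 38 at 2 to single cells at 27 and 28, with no trough at the limit.

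In the lymph node library the same limits left 49 of 11269 cells within the quality limits, or 0.435% [0.322 to 0.574]. Their median depth was 5534 UMIs. With under 50 cells, their gene levels were not compared. Of 12427 primary tumour barcodes, 47 also occurred in the lymph node library, 1 of them in a member.

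Of the 4 genes that mark these cells, Ly6c2, Ccr2 and Plac8 were used in the choice and cannot check the label, so only Chil3 bears on it. Plac8 (chromosome 5, 100553725 to 100572245, GRCm38) was found in 257 of the 277 members and Chil3 (chromosome 3, 106147554 to 106167564) in 121. Ly6c2 (chromosome 15, 75108158 to 75111970) was found in 88 members and Ccr2 (chromosome 9, 124101950 to 124113557) in 82. Both Ly6c2 and Ccr2 were found together in 27, and 134 members had entered on Plac8 alone. So by detected UMIs most members had Plac8, and the genes for Ly6C and CCR2 were each found in a minority.

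The pooled level in members was 294 CPM [256 to 336] for Ly6c2, 183 CPM [154 to 216] for Ccr2, 2168 CPM [2063 to 2276] for Plac8 and 1135 CPM [1060 to 1214] for Chil3. Depth sets how often a gene is found, so each cell was also thinned to 1000 UMIs, which left out 9 members. Ly6c2 was then found in 20.1% of the members, Ccr2 in 15.6%, Plac8 in 80.9% and Chil3 in 35.9%. In the 6217 keratin-high cells, which should lack these genes and had a median of 18464 UMIs, the thinned shares were 0.113% for Ly6c2, 0.0343% for Ccr2, 6.76% for Plac8 and 0.0305% for Chil3. In 432 CD3-positive cells (median 1880 UMIs), of which 387 were deep enough, they were 18.3%, 7.07%, 33.2% and 0.148%. Ly6c2 and Plac8 are also genes of T cells, and of the 4 markers Chil3 was the one near 0 in both of these groups.

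Ly6c1 (chromosome 15, 75044018 to 75048830) is a near-identical neighbour of Ly6c2, and reads that fit both could be lost or split. Its level was 50.8 CPM in members and was higher in the keratin-high cells at 347 CPM.

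Genes of other cell types were counted over whole marker lists. The T cell genes Cd3d and Cd3e had 0 UMIs, and the whole T cell list (5 genes) had 8 UMIs, although the choice itself limited CD3. The B cell list had 10 UMIs in 8 members, with Cd79a and Ms4a1 at 0, and the mast cell and eosinophil list 2 UMIs in 1 member. The endothelial list had 29 UMIs in 22 members, all of Pecam1, which leukocytes also express, with Cdh5, Kdr, Plvap and Emcn at 0. The 8 conventional dendritic cell genes summed to 44 UMIs in 32 members, with Clec9a and Kmo at 0, and 6 members had 2 or more. The mature dendritic cell list had 54 UMIs in 21 members. The plasmacytoid dendritic cell list had 43 UMIs in 25 members, 41 of them of Tcf4, with Siglech, Klk1 and Pacsin1 at 0. Of the macrophage lists, part of which the choice limited, the C1q list had 159 UMIs in 92 members and the Gpnmb list 560 UMIs in 161 members. The NK cell list had 97 UMIs, 96 of them in 1 member. The fibroblast list had 207 UMIs in 36 members, and the cancer cell list 260 UMIs in 114 members.

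Most UMIs of neutrophil genes were concentrated in a pair of cells. The neutrophil list, part of which the choice limited, had 1580 UMIs in 86 members, 887 of them in 1 cell. In 41 members it had 2 or more UMIs. The alarmin genes S100a8 and S100a9 had 1324 UMIs over all members, of which 1178 lay in the 2 members that also held 249 and 81 UMIs of the granule genes Camp, Ltf and Ngp. Without these 2 cells the summed level of S100a8 and S100a9 was 196 CPM. A UMI of either gene was found in 40 members. Levels of S100a9, Ngp and other neutrophil genes below that move by over 1.5 times are also given without these cells.

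The most abundant transcripts of the members included inflammatory genes. After ribosomal protein and mitochondrial genes were set aside, Fth1 (ferritin heavy chain) led with 26902 CPM and Tmsb4x (thymosin beta 4) followed. Cxcl2, a chemokine that recruits neutrophils, came next with 12463 CPM and was found in 244 members. Il1b, the precursor of interleukin 1 beta, was at 9347 CPM and was found in 263. Thbs1 (thrombospondin 1) was at 3441 CPM, Ccl4 at 3052 CPM and Ptgs2, the inducible cyclooxygenase that makes prostaglandin precursors, at 2176 CPM. Cd74, the invariant chain of MHC class II, was at 3517 CPM in 198 members.

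The members were next set against 70 C1q macrophages of the same tumours, chosen by the mirrored limits (at least 3 C1q UMIs, and under 2 UMIs of Ly6c2, Ccr2 and Plac8). Their median depth was 3353 UMIs. Of 5321 genes with at least 20 UMIs in both groups together, 10.6% were at least 2-fold higher in monocytes and 9.04% at least 2-fold lower, and the median log2 ratio over these genes was -0.01. Among 16 classical monocyte genes that were not used in the choice, 12 were 2-fold higher and 1 was lower, with a median log2 ratio of 2.04. Of 12 non-classical monocyte genes, 6 were higher and 1 lower with a median of 1.08, which became -0.10 when genes with at least 100 UMIs alone were counted. Among 20 macrophage maturation genes, none was 2-fold higher and 16 were lower, with a median of -1.78.

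Hp, the haptoglobin gene, had 172 CPM in members and 0 UMIs in the C1q macrophages, at least 15.1-fold higher against a floor of 3 counts. Chil3 was at 1135 against 45.8 CPM (log2 ratio 4.57 [3.82 to 5.59]). Vcan, the proteoglycan versican made by classical monocytes, was at 474 against 38.2 CPM (log2 3.57 [2.74 to 4.71]). Trem1, an activating receptor of monocytes and neutrophils, was at 227 against 11.5 CPM, and Ifitm6 was at 164 against 7.64 CPM. Pou2f2, an octamer-binding transcription factor, was at 178 against 11.5 CPM. Tppp3, a tubulin-binding protein, was at 166 against 3.82 CPM, and Fmnl1, a formin of the actin cytoskeleton, at 103 against 3.82 CPM. The exception in the classical list was F13a1, the coagulation factor XIII A chain, at 294 CPM in members and 664 CPM in C1q macrophages.

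Lower in members were genes of macrophage differentiation and function. Mrc1 (the mannose receptor CD206) was at 70.8 against 1004 CPM and was found in 19 members. Apoe (apolipoprotein E) was at 269 against 3280 CPM, and Selenop (selenoprotein P) at 135 against 1718 CPM. Clec10a, a lectin receptor, was at 21.4 against 340 CPM, and Vcam1, an adhesion molecule, at 45.4 against 592 CPM (23.9 CPM in members without subcluster 4, described below). The CC chemokine list had a median log2 ratio of -1.22, with 7 of 12 genes 2-fold lower and 2 higher. The largest difference was that of Ccl8, at 9.35 against 1604 CPM (log2 -7.32 [-8.74 to -6.37]), and Ccl7 was at 267 against 2699 CPM and Ccl12 at 18.7 against 233 CPM. The pair that was higher was Ccl3, at 480 against 206 CPM, and Ccl5, at 1227 against 607 CPM.

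Il1b, Cxcl2 and Ptgs2 were higher in members. Il1b was at 9347 against 2757 CPM (log2 1.76 [1.65 to 1.87]), Cxcl2 at 12463 against 5994 CPM (log2 1.06 [0.98 to 1.13]) and Ptgs2 at 2176 against 794 CPM (log2 1.45 [1.25 to 1.67]). Their lists were mixed. Of 10 CXC chemokine and receptor genes 2 were 2-fold higher and 3 lower, with a median log2 ratio of -0.04, and of 10 cytokine genes 4 were higher and 1 lower. Among the cytokine genes was Areg, the growth factor amphiregulin, at 401 against 57.3 CPM, of which 1 member held 45.0% of the UMIs. Pf4, the platelet factor 4 chemokine, went the other way at 704 against 6250 CPM.

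Of 13 genes of the adhesion list, which does not hold Vcam1, 7 were 2-fold higher and none lower, with a median log2 ratio of 1.42. Itgal, the alpha chain of LFA-1 with which leukocytes hold on to endothelium, was at 242 against 38.2 CPM (log2 2.60 [1.75 to 3.75]). Itga4, the alpha chain of VLA-4, was at 251 against 61.1 CPM. MHC class II genes differed little between these groups, with none of 7 genes past 2-fold and a median log2 ratio of -0.08. H2-Aa was at 1078 CPM in members and 1138 CPM in C1q macrophages (log2 -0.08 [-0.27 to 0.12]). Of 23 interferon response genes, 3 were 2-fold lower and none higher, with Rsad2 (viperin) at 501 against 1527 CPM.

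**Figure D2:**
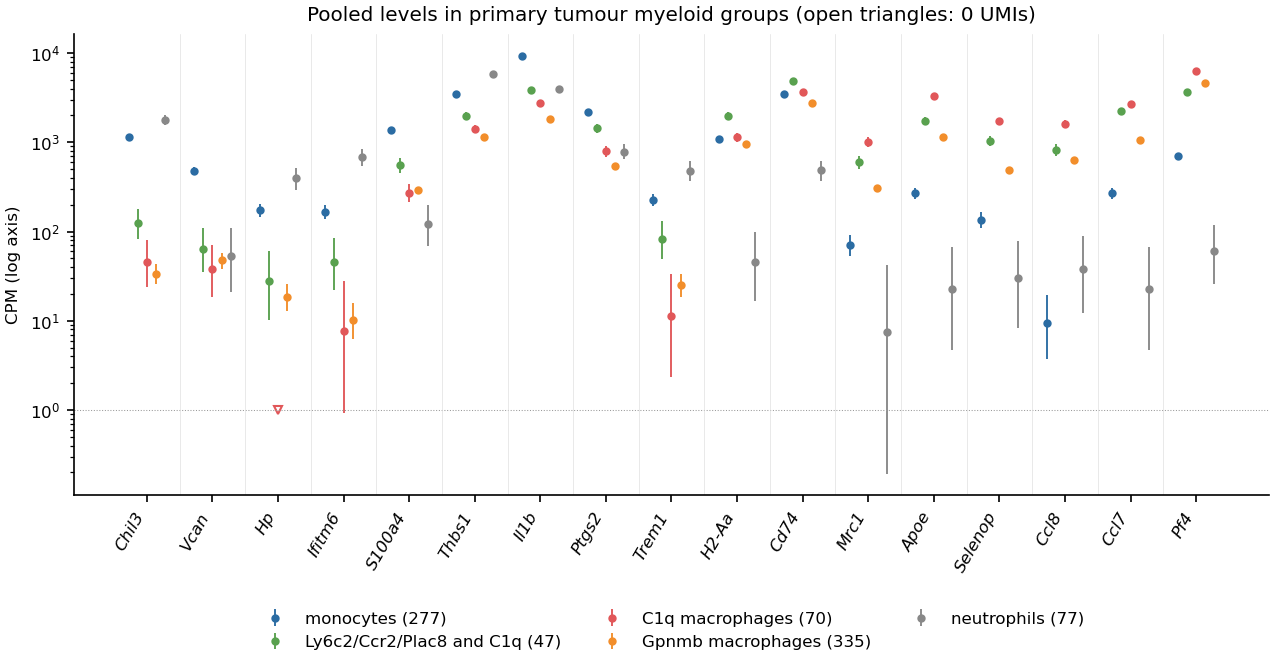
Pooled levels of 17 genes in CPM (log axis) in 5 myeloid groups of the primary tumour library, with cell numbers in the legend; bars are 95% Poisson intervals and open triangles mark 0 UMIs. Chil3, Vcan and Trem1 are higher in the members than in both macrophage groups, Mrc1, Apoe, Ccl8 and Pf4 are lower, and H2-Aa and Cd74 lie close together in these groups.

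Cells that met every limit except that on C1q, 47 in number with a median of 4100 UMIs, lay between both groups for many of these genes. Chil3 was at 124 CPM and Vcan at 65.0 CPM in them, nearer to the C1q macrophages. Il1b was at 3861 CPM and Mrc1 at 594 CPM, also between both groups. Apoe (1737 CPM) and Ccl8 (816 CPM) lay about midway on the linear scale. H2-Aa, at 1981 CPM, was above both groups. Ccr2, at 221 CPM, was close to its level in members, and is part of the sum that chose these cells.

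The second comparison was with 335 Gpnmb macrophages (at least 5 UMIs of Gpnmb, Lpl and Mmp12, median 4719 UMIs), a lipid-associated state. Of 7952 genes, 8.44% were at least 2-fold higher in monocytes (671 genes) and 11.6% at least 2-fold lower (920 genes), with a median log2 ratio of -0.06. Without the 24 members of subcluster 4 described below, which held all 6 members marked as doublets, the number lower was 1381. Of 17 classical monocyte genes, 13 were 2-fold higher and none lower (median 1.59), and of 13 non-classical genes 8 were higher and 1 lower (median 1.69). Of 22 macrophage maturation genes, 18 were lower and none higher (median -2.06).

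Chil3 was the gene with the highest ratio by the naming rule, at 1135 against 33.5 CPM (log2 5.07 [4.71 to 5.47]). Vcan was at 474 against 47.5 CPM and Ifitm6 at 164 against 10.3 CPM. Mefv, the gene of the inflammasome sensor pyrin, was at 215 against 13.4 CPM, and Sorl1, a sorting receptor, at 155 against 16.0 CPM. Hp, Trem1 and Tppp3 were also among the 8 highest ratios, with log2 ratios of 3.20, 3.16 and 3.27. Ace, angiotensin-converting enzyme and a gene of non-classical monocytes, had 104 CPM in members and 0.516 CPM, a single UMI, in the Gpnmb macrophages (log2 7.08 [5.14 to 12.98]).

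Among the genes lower in members, Atp6v0d2, a subunit of the vacuolar proton pump of macrophages and osteoclasts, had 0 UMIs in members and 181 CPM in the Gpnmb macrophages, at least 45.1-fold lower in members. Ctsk (cathepsin K) was at 2.67 against 72.3 CPM and Mmp13 (collagenase 3) at 8.02 against 367 CPM. Both are proteases that degrade collagen. Igf1 was at 1.34 against 80.0 CPM, Ccl8 at 9.35 against 637 CPM and Hvcn1, a proton channel, at 10.7 against 186 CPM. Bhlhe41, a transcription repressor, was at 2.67 against 103 CPM, and Plpp3, a lipid phosphatase, at 5.35 against 108 CPM. Without subcluster 4 the member levels of Plpp3 and Hvcn1 were 3.19 and 6.38 CPM, and Bhlhe41 had 0 UMIs, at least 21.5-fold lower. Cd36, a scavenger receptor placed in the non-classical list, was the exception there at 143 against 889 CPM.

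Il1b and Ptgs2 again stood higher in members. Il1b was at 9347 against 1816 CPM (log2 2.36 [2.31 to 2.42]) and Ptgs2 at 2176 against 536 CPM (log2 2.02 [1.91 to 2.14]). Osm (oncostatin M) was at 699 against 210 CPM and Il6 at 422 against 119 CPM. Of 13 cytokine genes 6 were 2-fold higher and 1 lower. The chemokine lists did not share this direction. Of 10 CXC genes 3 were higher and 4 lower (median -0.09), and of 12 CC genes 1 was higher and 6 lower (median -1.18). Of 14 growth factor and cytokine receptor genes 7 were 2-fold higher and none lower (5 and 1 against C1q macrophages), among them Csf2rb, the shared chain of the GM-CSF and IL-3 receptors, at 714 against 333 CPM. Of 13 adhesion genes 7 were higher and 1 lower. None of 8 MHC class II genes was past 2-fold. Among the interferon response genes 6 of 26 were 2-fold higher and 2 lower. Both comparisons use the same members, so they are not independent of each other.

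**Figure D3:**
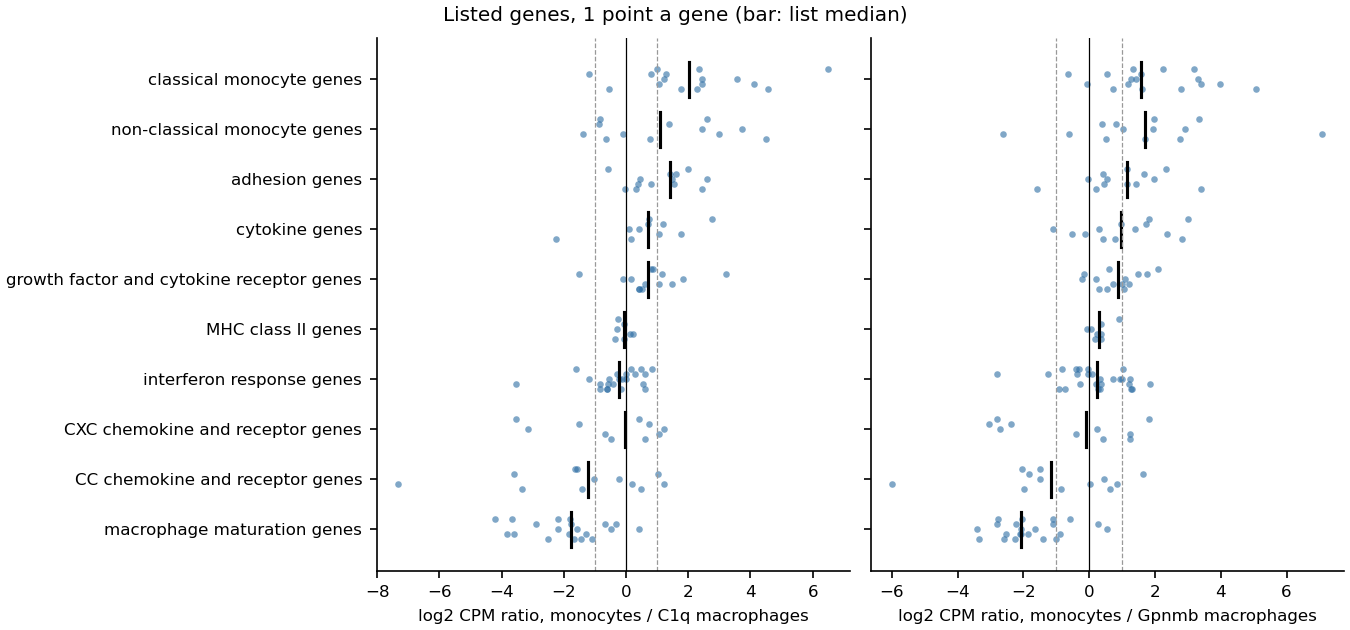
Log2 ratio of pooled CPM in members over C1q macrophages (left) and over Gpnmb macrophages (right) for genes of 10 lists, 1 point a gene, with black bars at list medians and dashed lines at 2-fold; genes used in the choice are left out. Macrophage maturation genes lie to the left in both panels (medians -1.78 and -2.06), classical monocyte genes to the right (2.04 and 1.59), and MHC class II genes near 0.

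The myeloid granule genes were 2-fold higher in 4 of 4 cases against C1q macrophages (median log2 ratio 6.11) and in 5 of 5 against Gpnmb macrophages (6.88). All 4 had 0 UMIs in the C1q macrophages, as had 1 of 5 in the Gpnmb macrophages. With sums of 0 set to 3 counts the medians were 3.5 and 6.43. Without the 2 members rich in granule genes, only 1 and 2 of these genes had enough UMIs to be compared, and they were still higher (medians 5.00, again against 0 UMIs, and 1.88). Of the lineage transcription factor genes, 1 of 15 was higher and 5 were lower against C1q macrophages, and 3 of 17 were higher and 1 lower against Gpnmb macrophages. Of the suppressive myeloid genes, 8 of 18 were 2-fold higher and 4 lower against C1q macrophages, and 10 of 19 and 5 against Gpnmb macrophages. S100a8 and S100a9, at 886 and 883 CPM in members, are among the higher ones, and most of their UMIs lay in the 2 members named above. Without these 2 members 6 of 18 were higher and 4 lower against C1q macrophages, and 8 of 19 and 5 against Gpnmb macrophages. Il10, an anti-inflammatory cytokine, was at 142 CPM in members and 672 CPM in C1q macrophages. Of the pattern receptor genes, 6 of 14 were higher and 1 lower against C1q macrophages, and 3 higher and 3 lower against Gpnmb macrophages. Cd14, the lipopolysaccharide coreceptor, was at 2303 CPM in members and 669 CPM in Gpnmb macrophages.

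Of the matrix and coagulation genes, 8 of 16 were higher and 4 lower against C1q macrophages, and 5 of 18 and 4 against Gpnmb macrophages. F10, coagulation factor X, was at 587 CPM in members and 107 CPM in C1q macrophages, and Timp2, a protease inhibitor, at 66.8 and 260 CPM. Fc receptor and complement genes were 2-fold lower in 5 of 10 cases and higher in none against C1q macrophages. Fcgr3 was at 230 and 538 CPM. Against Gpnmb macrophages 1 of 11 was higher and 2 were lower (median -0.05). Of the glycolysis and hypoxia genes, 1 of 17 was higher and 1 lower against C1q macrophages, and none of 18 was higher and 1 lower against Gpnmb macrophages. Of the cell cycle genes, 1 of 8 was lower against C1q and 3 of 13 against Gpnmb macrophages and none was higher, with Mki67 at 49.5 CPM in members. Of 12 heat shock and immediate early genes, 4 were lower and none higher against C1q macrophages, and none was lower and 1 higher against Gpnmb macrophages (median -0.22). Fos and Jun were at 346 and 239 CPM in members and 874 and 565 CPM in C1q macrophages.

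The third comparison was with neutrophils. Under the mirrored limits only 6 cells passed, so the Lyz2 limit was dropped for them after the counts had been seen, which gave 77 cells with a median of 833 UMIs, 1 of which held 20.3% of their UMIs. That cell, with 26844 UMIs, also held 327 of the group's 359 UMIs of the fibroblast list. Of 4924 genes, 20.9% (1031 genes) were at least 2-fold higher in monocytes and 10.1% (499 genes) at least 2-fold lower. The median log2 ratio was 0.22. By the mean of single-cell CPM 2037 were higher and 567 lower. Without the tenth of each group with most UMIs, 1509 were higher and 416 lower. S100a9 was at 883 CPM in members and 40641 CPM in neutrophils (log2 -5.52, and -9.73 without the 2 members rich in granule genes). G0s2, a lipolysis inhibitor, was at 20.05 against 2987 CPM. Asprv1, a protease gene, had 0 UMIs in members and 378 CPM in neutrophils, at least 94.3-fold lower in members. Stfa2l1 (1.34 against 582 CPM) and Cstdc4 (14.7 against 1066 CPM), both of the stefin A family of protease inhibitors, Mmp9 (8.02 against 484 CPM), Il1f9 (8.02 against 408 CPM) and the granule gene Ngp (134 against 7003 CPM, with UMIs in 2 members) were also lower. Without these 2 members G0s2 was at 12.1 CPM in the others, Cstdc4 at 6.72 CPM and Mmp9 at 4.03 CPM, and Stfa2l1 had 0 UMIs, at least 144-fold lower. Ngp then had 0 UMIs too and was at least 1737-fold lower. Of the 926 Ngp UMIs of the neutrophils, 778 lay in the 6 cells with at least 3 Lyz2 UMIs, and against the other 71 cells (1410.2 CPM) the bound was 349.8-fold. Chil3 was found in 8 of the 77 neutrophils. Its pooled level of 1785 CPM rested on the same 6 neutrophils, which held 223 of the 236 UMIs (102 in 1 cell). In the other neutrophils Chil3 was at 124 CPM [66.0 to 212], below the 1135 CPM of the members.

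Several genes named as higher in members had no UMI in neutrophils. H2-DMb1, which loads peptides on MHC class II, had 140 CPM in members and 0 UMIs in neutrophils, at least 6.18-fold higher. Cd86, a costimulatory ligand, was at least 5.48-fold higher and Ifih1, the RNA sensor MDA5, at least 6.42-fold higher. Pycard, the inflammasome adaptor ASC, was at least 6.72-fold higher. For Arl5c, Pou2f2, Hivep3 and Clec4a1 the bounds were 8.01, 7.83, 5.65 and 5.42. All 6 tested MHC class II genes were 2-fold higher in members, with a median log2 ratio of 3.73 (3.55 with a gene at 0 UMIs set to 3 counts). Csf1r, the receptor of the monocyte growth factor CSF-1, was at 355 against 30.3 CPM. Of 22 interferon response genes 9 were higher and 1 lower, and of 13 pattern receptor genes 4 were higher and 2 lower. Classical monocyte genes were split, with 6 of 16 higher and 4 lower (median 0.52). Non-classical genes were higher in 8 of 11 cases and lower in none. Heat shock and immediate early genes were lower in 7 of 12 cases and higher in none. The depth of both groups differed and its part in these ratios was not tested.

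The members themselves were not uniform. The 88 members with a Ly6c2 UMI (median 2490.5 UMIs) were set beside the 189 without (median 2228 UMIs), and only genes that did not define this split were compared. Of the cells with Ly6c2, 50 also had a Chil3 UMI and 4 an Ace UMI. Of the cells without Ly6c2, 71 had Chil3 and 45 had Ace. Chil3 was at 2160 CPM with and 656 CPM without Ly6c2 (log2 1.72 [1.52 to 1.92]) and F13a1 at 534 and 182 CPM. Both are genes of classical monocytes, although F13a1 was higher in C1q macrophages than in the members. Summed macrophage maturation genes were at 5030 CPM with and 4997 CPM without Ly6c2. C1q macrophage markers not used in the choice were at 273 and 137 CPM, and such Gpnmb macrophage markers at 454 and 645 CPM. Of 4425 genes, 3.19% were at least 2-fold higher and 5.90% at least 2-fold lower in the cells with Ly6c2, and of 16 classical monocyte genes 5 were higher and none lower (median 0.66).

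Of 11 non-classical monocyte genes, 4 were 2-fold lower in the cells with Ly6c2 and none higher (median -0.91). Ace was at 25.2 CPM with and 141 CPM without Ly6c2 (log2 -2.38 [-3.98 to -1.29]), Treml4, a receptor of non-classical monocytes, at 29.4 and 92.1 CPM, and Fcgr4, an activating IgG receptor, at 29.4 and 112 CPM. Nr4a1 was at 126 and 261 CPM. Cx3cr1, a chemokine receptor used to define non-classical monocytes, had too few UMIs for the count and did not share this direction, at 33.6 and 15.7 CPM (log2 1.10 [-0.51 to 2.71]). Of 6 MHC class II genes, 4 were 2-fold lower in the cells with Ly6c2 and none higher (median -1.14), with H2-Aa at 592 and 1305 CPM (log2 -1.14 [-1.41 to -0.88]) and Cd74 at 1870 and 4286 CPM (log2 -1.20 [-1.35 to -1.05]). The interferon response genes were mixed, with 7 of 21 lower, 2 higher and a median of -0.77. Ifih1 was at 54.6 and 188 CPM and Irf7, a transcription factor of the interferon response, at 58.8 and 29.4 CPM. Il1b did not differ between the sides by more than counting error, at 9185 and 9422 CPM (log2 -0.04 [-0.11 to 0.04]). Leaving out subcluster 4 and the 2 members rich in granule genes left a log2 ratio of 1.61 for Chil3, -2.27 for Ace and -1.16 for H2-Aa. The ratio of Pf4, at 1719 and 231 CPM, was 2.89 over all members and 2.14 without these cells.

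**Figure D4:**
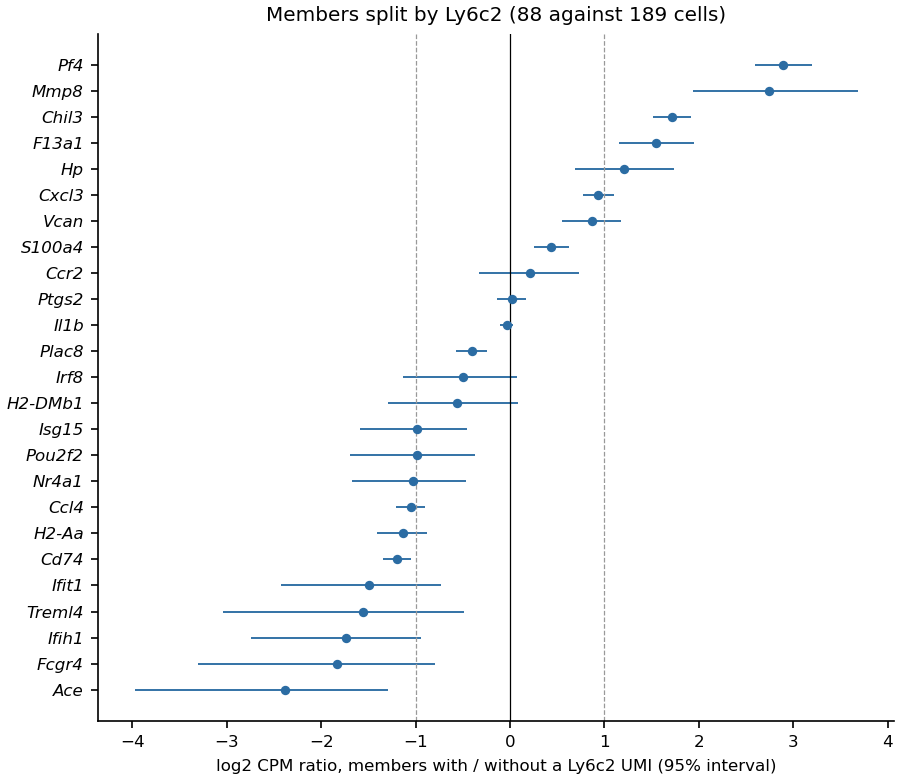
Log2 ratio of pooled CPM in the 88 members with a Ly6c2 UMI over the 189 without, for 25 genes with 95% intervals for counting error; dashed lines mark 2-fold. Chil3 (1.72) and F13a1 (1.55) lie to the right, Ace (-2.38), Treml4 and the MHC class II genes to the left, and Il1b and Ptgs2 at 0.

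Clustering the members on their own gave 5 subclusters. The genes that lead a subcluster come from the same counts as the clustering and are a description. Subcluster 1 (93 cells, 33.6% [28.0 to 39.5]) was led by MHC class II genes. Its H2-Aa level was 2681 CPM against 345 CPM in the other members, and Cd74 was at 7700 against 1603 CPM. The chemokine gene Ccl5 was at 1983 CPM. Ly6c2 was found in 16 of these cells and Ccr2 in 36. It also held 22 of the members' 44 UMIs of the conventional dendritic cell list, in 14 cells, and 33 of the 54 UMIs of the mature dendritic cell list, in 12 cells. Of Cd209a it held 5 of 6 UMIs, and of Flt3 1 of 2.

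Subcluster 2 (69 cells, 24.9% [19.9 to 30.4]) had the highest summed level of classical monocyte genes, 19971 CPM. Chil3 was at 3652 CPM and found in 58 cells, Vcan at 1019 CPM, Hp at 411 CPM and Ly6c2 at 590 CPM, found in 43 cells. It also contained the 2 members rich in granule genes, and S100a8 (3744 CPM) and Lcn2 led it by fold. Without these 2 cells S100a8 was at 563 CPM and Chil3 at 3302 CPM. Summed MHC class II genes were at 955 CPM here and at 15548 CPM in subcluster 1. F13a1 and Thbs1 were at 584 and 6383 CPM. Pf4 was at 0 UMIs.

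Subcluster 3 (68 cells, 24.5% [19.6 to 30.1]) was led by Adgre4, Gngt2 and Ace. Ace was at 281 CPM and found in 28 cells, Adgre4, an adhesion receptor of the EGF-TM7 family, at 178 CPM, Itgal at 597 CPM and Cd36 at 336 CPM. Treml4 was at 165 CPM and Nr4a1 at 405 CPM. Ly6c2 was found in 5 of the 68 cells (54.9 CPM), and 51 cells had entered the members on Plac8 alone, which was at 3443 CPM. Summed over the list, non-classical monocyte genes were at 3217 CPM, and at 1388 CPM in subcluster 1 and 787 CPM in subcluster 2. Cx3cr1 was at 41.2 CPM.

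Subcluster 5 (23 cells, 8.30% [5.34 to 12.2]) had the highest chemokine levels. Cxcl2 was at 29156 CPM, Il1b at 15776 CPM, Ptgs2 at 6040 CPM and Ccl4 at 11321 CPM. Ccl7 (1936 CPM), Ccl2 (3060 CPM), Pf4 (4401 CPM, and 2845 CPM without the cell with most Pf4) and Mrc1 (420 CPM) were among its leading genes, and those 4 were also higher in C1q macrophages than in the members as a whole. Each of these cells had under 3 C1q UMIs by the choice. Areg was at 2641 CPM, but 1 cell held 69.2% of its UMIs and the level without that cell was 909 CPM.

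Subcluster 4 (24 cells, 8.66% [5.63 to 12.6]) stood apart. It was led by Lmo7, Tpm1, Timm9 and Hspg2, none of them a myeloid marker, and held all 6 members marked as doublets by Scrublet. Krt8 was at 455 CPM, the fibroblast gene Dcn at 620 CPM and the fibroblast list at 1414 CPM, against 277 CPM over all members. In this subcluster 1 cell held 77 of the 171 fibroblast list UMIs, and without the cell with most UMIs the list was at 826 CPM and Dcn at 393 CPM. Plac8 was at 711 CPM and found in 13 cells. Ly6c2 was found in 16 of the 24 cells, Ccr2 in 2 and Chil3 in 3. Subcluster 4 was given no name. Without it the members had 253 cells, Ly6c2 was at 261 CPM, Plac8 at 2448 CPM and Chil3 at 1345 CPM. The part of mixed cells in its levels was not tested.

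**Figure D5:**
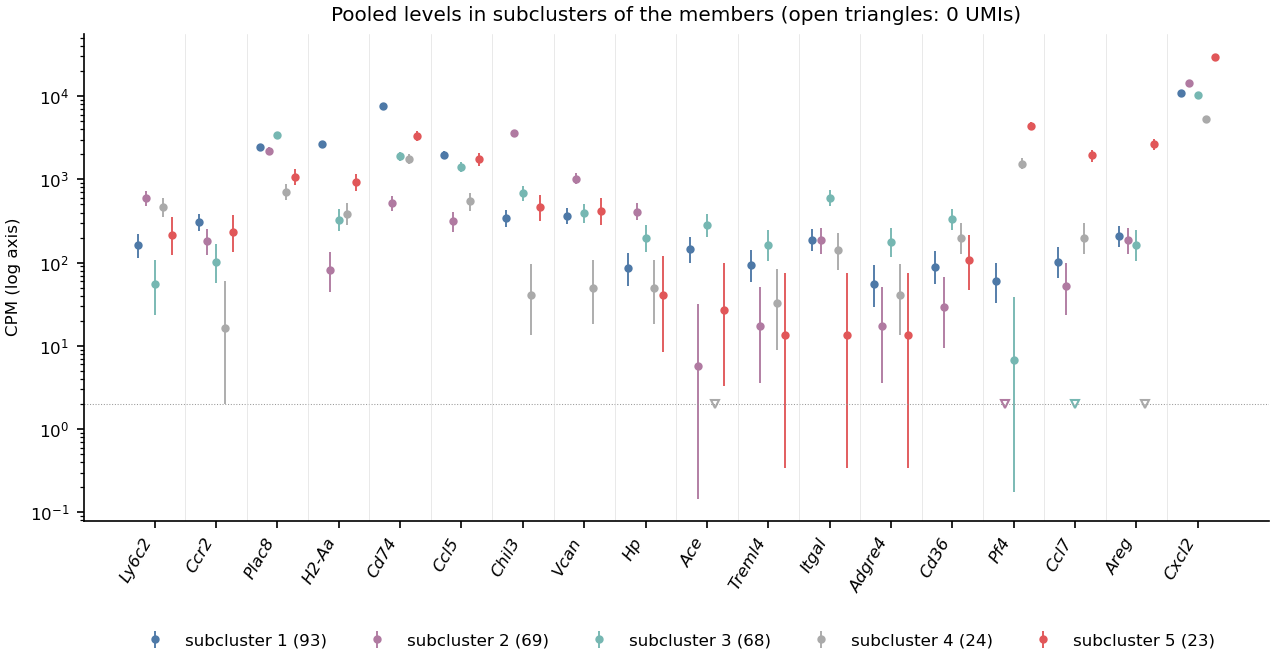
Pooled levels of 18 genes in CPM (log axis) in the 5 subclusters of the members, with cell numbers in the legend; bars are 95% Poisson intervals and open triangles mark 0 UMIs. H2-Aa and Cd74 are highest in subcluster 1, Chil3 and Vcan in subcluster 2, Ace, Treml4 and Itgal in subcluster 3, and Pf4, Ccl7 and Cxcl2 in subcluster 5.

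The class II genes were high together in subcluster 1, and the promoters of 3 of them are shown for that reason. Transcription of these genes depends on an upstream enhancer with a Y box, bound by the factor NF-Y, and on the coactivator CIITA, as is known from other work. The windows run from 250 bases before to 50 bases after the transcript start (RefSeq, GRCm38.p6), read 5′ to 3′ on the gene's strand, with the letters TGATTGG in capitals. H2-Aa lies at chr17:34287774-34288073 (minus strand), H2-Eb1 at chr17:34305617-34305916 (plus strand) and H2-DMb1 at chr17:34152941-34153240 (plus strand).
H2-Aa: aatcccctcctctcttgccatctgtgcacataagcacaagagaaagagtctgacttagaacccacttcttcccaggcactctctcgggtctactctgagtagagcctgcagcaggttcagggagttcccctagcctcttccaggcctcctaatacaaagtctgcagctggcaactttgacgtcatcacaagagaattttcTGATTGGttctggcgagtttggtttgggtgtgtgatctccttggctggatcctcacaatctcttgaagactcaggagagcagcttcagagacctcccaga
H2-Eb1: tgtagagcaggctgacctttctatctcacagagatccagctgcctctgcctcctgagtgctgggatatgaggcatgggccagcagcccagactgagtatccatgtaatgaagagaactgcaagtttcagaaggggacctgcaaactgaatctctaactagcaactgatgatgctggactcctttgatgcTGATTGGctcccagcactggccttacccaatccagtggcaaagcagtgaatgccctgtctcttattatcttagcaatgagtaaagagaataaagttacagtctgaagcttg
H2-DMb1: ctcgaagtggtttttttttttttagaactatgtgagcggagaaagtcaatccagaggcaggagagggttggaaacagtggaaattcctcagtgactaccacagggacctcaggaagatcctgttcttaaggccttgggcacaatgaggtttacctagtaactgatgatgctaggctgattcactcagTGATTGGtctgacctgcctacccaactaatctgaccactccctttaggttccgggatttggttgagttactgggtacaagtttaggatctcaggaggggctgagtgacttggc
The letters began 50 bases before the start in H2-Aa, 61 in H2-Eb1 and 63 in H2-DMb1. Searched on both strands, they were found in 2559 of 32817 promoter windows of this length (7.80%), and in windows of 6 of the 7 class II genes that matched the reference (H2-DMa was the exception). A match is a description of the letters and not of binding. In members, H2-Aa was at 1078 CPM, H2-Eb1 at 611 CPM and H2-DMb1 at 140 CPM, and each was highest in subcluster 1 at 2681, 1494 and 341 CPM. Ciita was at 20.05 CPM over all members, from 15 UMIs.

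The study followed Alox12, Sema3c with its receptor genes Nrp2 and Plxna1, and the RNA editing and sensing genes Adar, Ifih1 and Zbp1. Alox12, the arachidonate 12-lipoxygenase, had 1 UMI in members. Sema3c, a secreted semaphorin, had 12 UMIs, 7 of them in 1 cell. The neuropilin gene Nrp2 was at 92.2 CPM in members and 285 CPM in Gpnmb macrophages (log2 -1.62 [-2.01 to -1.27]), and the plexin gene Plxna1 was at 20.05 and 64.0 CPM. Ifih1 was at 146 CPM in members, 99.3 CPM in C1q macrophages and 71.2 CPM in Gpnmb macrophages. Zbp1, a sensor of Z-form nucleic acids, was at 73.5, 80.2 and 91.9 CPM, and Adar, the RNA-editing adenosine deaminase, at 32.1, 30.5 and 25.8 CPM in the same order. Among related lipoxygenase pathway genes, Alox5 had 1 UMI, and Alox5ap, the protein that presents arachidonic acid to 5-lipoxygenase, was at 715 CPM in 214 members, against 393 CPM in C1q and 260 CPM in Gpnmb macrophages and 696 CPM in neutrophils.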

How the data were processed

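Single-cell 3′ libraries of primary tumours and lymph nodes were analysed from the deposited counts, which are raw UMIs. The file headers name Cell Ranger 5.0.0 for this step and the submitters' processing notes Cell Ranger 2.1.1, with the genome GRCm38. The files list 22620 genes. The members and the gene lists were chosen with earlier results of these data known. UMIs were summed over the cells of a group (748295 for the members) and given as CPM. Log2 ratios added 0.5 to each sum, for genes with at least 20 UMIs in both groups together, and an absolute log2 ratio of 1 counted as 2-fold. A sum of 0 was given a floor of 3 counts over the group, and bounds from it leave out counting error in the other group. With 1 library per tissue no test was run. Of genes with at least 50 UMIs and found in at least 20% of the cells of the higher group, the 8 highest and 8 lowest ratios were named, without genes of the limits and genes highest in keratin-high cells. Members of the 20 gene lists and 15 marker lists and the 25 most abundant genes were also named. Of symbols on several rows the row with most UMIs was used, and 1 listed gene was not matched. Some listed genes are counted with their list but not reported by name here. Members were clustered with scanpy 1.11.5 (2000 variable genes without cell cycle genes, 20 components, 15 neighbours, Leiden resolution 0.5, seed 1). Doublets were marked by Scrublet (expected rate 6%, 30 components) and kept; it marked 618 of the 9989 cells. The study's methods remove doublets with DoubletFinder after the quality limits. The deposited matrix still held cells outside those limits, and whether doublets were removed before deposit is not given in the sources used here. Genes were located with GENCODE M21 (390 of 390 matched). The ratio formula was run on simulated Poisson counts, and the thinning formula was compared with random draws. Both check the arithmetic. The simulated counts lacked the clumping of UMIs in single cells, so the intervals were not tested for it. The packages were scipy 1.17.1, numpy 2.4.6, matplotlib 3.10.9 and pandas 2.3.3 under python 3.11.15.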

Additional observations from a re-analysis of the deposited data

How the results depend on the processing

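No paired analysis was possible because each tissue has 1 library and the labels give both the same replicate number. The 48 named ratios kept their direction and stayed past 2-fold under all 530 alternative values tried. These genes were named as the most extreme in the same counts, so this is a weak check. Leaving out cells with over 6000 genes removed none from the compared groups. Of the 530 values, 20 were scored as moved, the largest by 7.64 in log2 ratio. In the 6 neutrophils with at least 3 Lyz2 UMIs, the genes named as higher in members had 0 UMIs. Their ratios there rest on the count added to each sum, without the floor of 3 counts. With at least 4 UMIs of Ly6c2, Ccr2 and Plac8 the members were 215 cells, 2.15% of cells. The Plac8 level was 2293 CPM without Scrublet doublets, 2333 CPM with keratins under 5, 2421 CPM with at least 4 UMIs, 2488 CPM as the mean of single cells, 2510 CPM without the tenth with most UMIs and 2448 CPM without subcluster 4; the Chil3 level was 1234 CPM without Scrublet doublets, 1267 CPM with keratins under 5, 1276 CPM as the mean of single cells, 1462 CPM without the tenth with most UMIs, 1345 CPM without subcluster 4, 1041 CPM without the 2 members rich in granule genes and 1057 CPM without the cell with most Chil3. With at least 100 UMIs per gene, fewer genes were compared: 175 were higher and 88 lower against C1q macrophages, 312 and 261 against Gpnmb macrophages, and 293 and 92 against neutrophils. Against neutrophils, 2037 were higher by the mean of single cells, and against Gpnmb macrophages 1381 were lower without subcluster 4; the cause was not tested. The median of non-classical monocyte genes against C1q macrophages turned from 1.08 to -0.10 at 100 UMIs, where fewer genes remained, and that of heat shock and immediate early genes against neutrophils from -1.08 to 0.025 with the 6 cells under the Lyz2 limit. Thinning to 2000 UMIs gave shares of 29.7% for Ly6c2, 26.1% for Ccr2, 88.3% for Plac8 and 44.2% for Chil3. Resolution 1.0 gave 7 subclusters, and 57.0%, 84.1%, 88.2%, 66.7% and 100% of subclusters 1 to 5 stayed in 1 of them. The alternatives on subcluster 4, single members and the Lyz2 limit of neutrophils were chosen after seeing the data. Few UMIs limit genes under about 20 UMIs, and members that entered with 2 UMIs rest on little evidence.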
